A study of Mus musculus with 6 samples.

Results

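Cholesterol and fatty acid synthesis genes were followed in bulk RNA-seq of healing flexor digitorum longus (FDL) tendons. The set comprised 33 genes of 53819 listed genes: 5 regulators of sterol-regulated transcription, 20 genes of the sterol branch and 8 genes of the fatty acid branch. It was chosen by gene symbol, with the DTR and WT values of *Insig1* in these same libraries in view. All 33 genes were listed, and all 33 were among the 17496 genes that passed the filter on low counts. Since the comparison of DTR with WT led to the choice, the values of the 33 genes in it are given as a description. No p-value is printed for a single gene of the set. Calls by a threshold are given as counts, some with the genes named, beside the share or number of all genes called. They also served to choose which promoters to show.

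The 6 libraries came from 3 DTR and 3 WT tendons, 1 tendon per library, harvested at D28 post-surgery after transection and repair of the FDL tendon in mice that were 10 to 12 weeks old. DTR tendons had the genotype Scx-Cre+; DTR F/+, with a non-inducible Cre under the control of *Scleraxis* (*Scx*). This Cre turned on the diphtheria toxin receptor from the Rosa locus in the overall pool of *Scx*-lineage cells. WT tendons were Scx-Cre-; DTR F/+, so they carried the receptor allele without the Cre. Both groups received 5 daily injections of diphtheria toxin (DT), between D14 and D18 post-surgery. The sample titles count D28 from depletion, whereas the protocol counts it from surgery, and the latter was used. *Scx* itself, a transcription factor of tendon cells, stood at 2202, 2703 and 3064 TMM-normalized counts in WT and at 3476, 3407 and 3532 in DTR, and the earlier depletion was not measured in these libraries. In bulk RNA, fewer cells of a type and less RNA per cell cannot be told apart.

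Cells make cholesterol from acetyl-CoA through the mevalonate pathway, and fatty acids from the same precursor through acetyl-CoA carboxylase and fatty acid synthase. Both branches are driven by the SREBP transcription factors, which are held in the endoplasmic reticulum by the escort protein SCAP and the INSIG anchors while sterols are plentiful, and are cleaved in the Golgi once sterols fall. SREBP-2 acts mainly on the sterol branch, SREBP-1c mainly on the fatty acid branch, and *Insig1* is itself an SREBP target, so that its transcript is a common readout of the pathway.

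The promoters of 4 genes are shown because their DTR and WT values did not overlap, because 3 of them were the genes of the set called by DESeq2, and because the fourth, *Hmgcs1*, held the sterol regulatory element searched for. Each run is the 250 bases before the gene's start, 5′ to 3′ on the gene's strand, from RefSeq on GRCm38.p6. Bases just after the start were found in annotated transcripts of *Insig1* and *Cyp51*. For *Sc5d* and *Hmgcs1* they were not, so these starts, and distances from them, are less certain. Capitals mark the CCAAT box (CCAAT, or ATTGG where it lies on the opposite strand) and, in *Hmgcs1*, also the element TCACCCCAC.
Insig1, chr5:28071162-28071411, plus strand: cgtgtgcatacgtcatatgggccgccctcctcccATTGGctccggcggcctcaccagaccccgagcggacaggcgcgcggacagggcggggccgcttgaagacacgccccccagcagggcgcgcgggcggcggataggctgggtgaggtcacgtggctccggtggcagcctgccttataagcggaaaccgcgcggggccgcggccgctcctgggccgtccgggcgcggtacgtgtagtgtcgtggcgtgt
Cyp51, chr5:4104698-4104947, minus strand: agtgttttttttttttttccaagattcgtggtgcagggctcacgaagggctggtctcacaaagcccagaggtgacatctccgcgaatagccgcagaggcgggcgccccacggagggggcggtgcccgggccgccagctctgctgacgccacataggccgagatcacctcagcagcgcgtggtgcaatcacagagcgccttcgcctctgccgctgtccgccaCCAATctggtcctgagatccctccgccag
Sc5d, chr9:42264301-42264550, minus strand: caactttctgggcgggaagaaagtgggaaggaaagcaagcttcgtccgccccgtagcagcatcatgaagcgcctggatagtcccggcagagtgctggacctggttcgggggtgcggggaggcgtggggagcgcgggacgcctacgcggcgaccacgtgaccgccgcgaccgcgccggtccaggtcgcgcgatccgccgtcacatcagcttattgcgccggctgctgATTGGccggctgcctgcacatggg
Hmgcs1, chr13:119690101-119690350, plus strand: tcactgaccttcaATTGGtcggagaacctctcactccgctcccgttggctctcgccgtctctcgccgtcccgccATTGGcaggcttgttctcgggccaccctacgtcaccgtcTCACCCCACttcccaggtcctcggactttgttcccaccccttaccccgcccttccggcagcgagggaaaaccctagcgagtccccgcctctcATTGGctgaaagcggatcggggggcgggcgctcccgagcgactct

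A promoter window from 250 bases before to 50 bases after the start was found for 26 of the 33 genes, and it was searched on both strands. A gene with more than 1 listed start counted once, as holding a motif where any of its windows held it, for the set and for all genes alike. The sterol regulatory element, spelled TCACNCCAC, was present in 1 of these 26 genes, *Hmgcs1*, where it began 137 bases before the start. Over the promoters of all 27025 genes in the RefSeq table, 1.44% held it. The CCAAT box was found in 21 of 26 (80.8%), against 41.1% of all genes and 42.0% of tested genes with a window. By branch, it was present in 15 of 16 sterol genes, in 4 of 5 regulators and in 2 of 5 fatty acid genes. It began 29 bases before the start in *Cyp51*, 24 bases before it in *Sc5d* and 216 bases before it in *Insig1*. The GC box GGGCGG was present in 22 of 26, against 63.6% for tested genes. A match of letters is a description of these windows and not a bound site. Elements spelled otherwise were not counted, so a window without a match may still hold a sterol regulatory element.

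Among the regulators, *Insig1*, one of the pair of INSIG anchors, was the gene whose values led to the choice of the set. It stood at 2109, 1693 and 2137 TMM-normalized counts in WT and at 3731, 3126 and 4031 in DTR. The means were 1980 ± 249 and 3629 ± 461 (SD, n = 3 each), a log2 fold change of 0.87 ± 0.13 (SE). All 3 DTR libraries were above all 3 WT libraries, and the fold change lay between 0.77 and 0.97 when any 1 library was left out. Since these same values led to the choice, both statements are a description only. *Insig2*, the other anchor, which SREBPs do not induce in the way of *Insig1*, stood at 2903, 2890 and 2881 in WT and at 2825, 2959 and 2813 in DTR, with a log2 fold change of -0.01 ± 0.07. Per kb of exon the ratio of *Insig1* to *Insig2* was 0.816, 0.658 and 0.833 in WT and 1.48, 1.19 and 1.61 in DTR.

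*Srebf2*, which encodes SREBP-2, stood at 3573, 3541 and 3851 TMM-normalized counts in WT and at 5637, 3747 and 4283 in DTR (log2 fold change 0.32 ± 0.15). DTR replicate 2 fell inside the WT range, so the groups overlapped. *Srebf1*, which encodes the SREBP-1 isoforms, stood at 2935, 2997 and 3028 in WT and at 2792, 2960 and 2515 in DTR (-0.12 ± 0.09). The per-kb ratio of *Srebf2* to *Srebf1* was 0.955, 0.927 and 0.997 in WT and 1.58, 0.993 and 1.34 in DTR, where replicate 2 again lay within the WT range. *Scap*, the escort that carries SREBPs to the Golgi, stood between 1851 and 2470 in WT and between 1909 and 2358 in DTR (-0.04 ± 0.13). The median log2 fold change of the 5 regulators was -0.01, against 0.0082 over all tested genes.

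Across the whole set, 25 of 33 genes were fitted higher in DTR, against 51.5% of all tested genes, and 8 were fitted lower. The median log2 fold change was 0.21 for the 33 genes, 0.29 for the sterol branch (17 of 20 higher) and 0.16 for the fatty acid branch (6 of 8 higher). In 6 genes, all DTR libraries were above all WT libraries (*Insig1*, *Hmgcs1*, *Idi1*, *Cyp51*, *Sc5d*, *Mvd*), against 8.96% of tested genes. In 1 gene, *Scd1*, all DTR libraries were below all WT libraries, against 7.85%. The edgeR quasi-likelihood test called 0 of the 33 genes at an adjusted p under 0.05, as it called 0.0% of all genes, the smallest adjusted p over all genes being 0.199. At an unadjusted p under 0.05, it had 10 of the 33 genes higher (5.52% of tested genes) and 2 lower (5.45%). DESeq2 called 3 of the 33 higher (*Insig1*, *Cyp51*, *Sc5d*), against 1.12% of its tested genes, and 0 lower, against 1.53%. With DTR replicate 2 left out, edgeR called 5 of the 33 (*Insig1*, *Hmgcs1*, *Sqle*, *Cyp51*, *Sc5d*), against 0.572% of all genes tested there (103 called higher, and 441 lower). These counts come from the comparison that led to the choice and are set beside the background without being read further. *Insig1*, whose values led to it, is among the 6, 10, 3 and 5 genes counted here as higher.

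**Figure D1:**
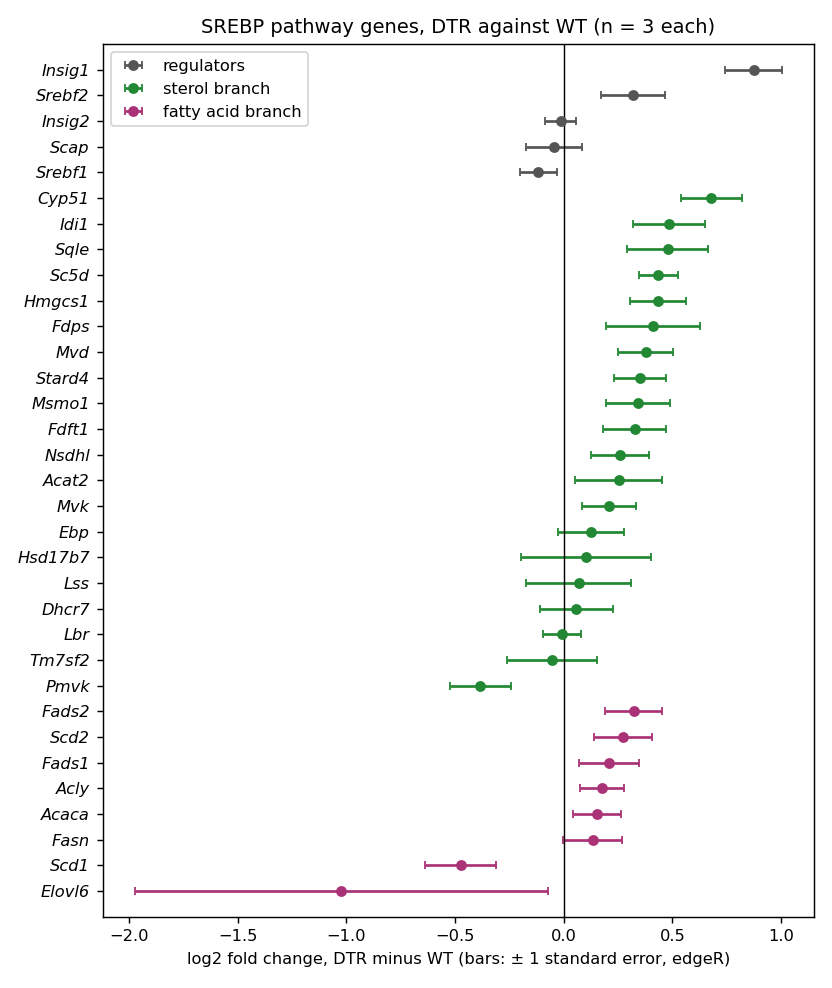
Log2 fold change of each of the 33 genes (x axis, DTR minus WT, with bars of 1 standard error from edgeR, n = 3 per genotype), grouped by role and ordered within each role. Most sterol genes lie to the right of 0, with Cyp51 at 0.68 and Pmvk at -0.38 as the ends, and Elovl6 has the widest bar (SE 0.95).

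The first steps of the sterol branch condense acetyl-CoA into mevalonate. *Acat2*, the cytosolic thiolase, stood between 456 and 630 TMM-normalized counts in WT and between 485 and 786 in DTR (log2 fold change 0.25 ± 0.20). *Hmgcs1*, the HMG-CoA synthase whose promoter is printed above, stood at 6055, 5768 and 5110 in WT and at 8542, 6391 and 7942 in DTR. Its means were 5644 ± 484 and 7625 ± 1110 (SD, n = 3), the log2 fold change was 0.43 ± 0.13, and the groups did not overlap.

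Mevalonate is phosphorylated and decarboxylated by *Mvk*, *Pmvk* and *Mvd*, which did not stand alike. *Mvd*, the decarboxylase, stood at 644, 706 and 615 in WT and at 937, 724 and 893 in DTR, without overlap (log2 fold change 0.38 ± 0.13). *Mvk*, the first kinase, had a log2 fold change of 0.21 ± 0.12, and its values of 739 to 905 in WT and 829 to 1039 in DTR overlapped. *Pmvk*, the second kinase, was fitted lower in DTR, at 1074, 973 and 798 in WT and at 734, 642 and 805 in DTR (-0.38 ± 0.14). In *Pmvk*, 1 DTR library lay just above the lowest WT library, so these groups overlapped too.

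*Idi1* and *Fdps*, which make the isoprenoid units and join them into farnesyl diphosphate, had low counts. *Idi1* stood at 155, 161 and 154 in WT and at 227, 216 and 215 in DTR (log2 fold change 0.48 ± 0.17), without overlap. *Fdps* stood at 199, 170 and 158 in WT and at 240, 182 and 280 in DTR (0.41 ± 0.22), with overlap. Both genes have closely related copies elsewhere in the genome, among which the counting could have split reads, so their levels are uncertain.

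Squalene synthesis and its first oxidation commit the pathway to sterols. *Fdft1*, squalene synthase, stood at 1609, 1363 and 1580 in WT and at 2226, 1522 and 1958 in DTR (log2 fold change 0.33 ± 0.15). *Sqle*, squalene epoxidase and a second point of flux control, stood at 1961, 1888 and 1903 in WT and at 3105, 1875 and 3037 in DTR (0.48 ± 0.19). In *Sqle* the WT libraries had an SD of 38.6, 2 DTR libraries stood far above them, and replicate 2 lay below all 3 of them. *Lss*, which closes squalene epoxide into lanosterol, stood at 1461, 973 and 912 in WT and at 1262, 866 and 1382 in DTR (0.07 ± 0.24), with a spread inside each group larger than the difference between them.

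From lanosterol onward, the demethylation and reduction steps were again unequal. *Cyp51*, the lanosterol 14-alpha demethylase, stood at 2929, 2460 and 3038 TMM-normalized counts in WT and at 5101, 3686 and 4714 in DTR. Its means were 2809 ± 307 and 4500 ± 732 (SD, n = 3), and its log2 fold change of 0.68 ± 0.14 was the largest of the sterol branch. The groups did not overlap, and leaving out any 1 library kept the value between 0.58 and 0.81. *Sc5d*, the sterol C5 desaturase, stood at 1881, 2004 and 2038 in WT and at 2862, 2442 and 2710 in DTR (0.44 ± 0.09), also without overlap. *Msmo1*, the C4 methyl oxidase, stood at 2827, 2096 and 2258 in WT and at 3230, 2544 and 3326 in DTR (0.34 ± 0.15), and *Nsdhl*, which acts after it in C4 demethylation, had a log2 fold change of 0.26 ± 0.13. Both overlapped between groups.

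The remaining sterol genes overlapped between groups. *Hsd17b7*, the 3-ketosteroid reductase of the same demethylation complex, stood at 1591, 1105 and 789 in WT and at 1544, 942 and 1254 in DTR (0.10 ± 0.30). *Dhcr7*, the last enzyme of the Kandutsch-Russell route, stood at 0.06 ± 0.17 on the log2 fold change scale, *Ebp*, the sterol isomerase, at 0.13 ± 0.15, *Tm7sf2*, a C14 reductase, at -0.05 ± 0.21, and *Lbr*, the lamin B receptor that also reduces the C14 bond, at -0.01 ± 0.09. In *Lss*, *Dhcr7*, *Hsd17b7*, *Ebp*, *Tm7sf2* and *Lbr* the sign of the fitted difference turned when some single library was left out, although the counts of fitted directions above include them. The 17 of 20 sterol genes fitted higher became 14 without WT replicate 3 and at most 18 without any other 1 library. *Stard4*, a cytosolic carrier of cholesterol and not an enzyme, stood at 1928, 1708 and 1566 in WT and at 2284, 1916 and 2435 in DTR (0.35 ± 0.12), where replicate 2 of DTR lay just below the highest WT library.

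**Figure D2:**
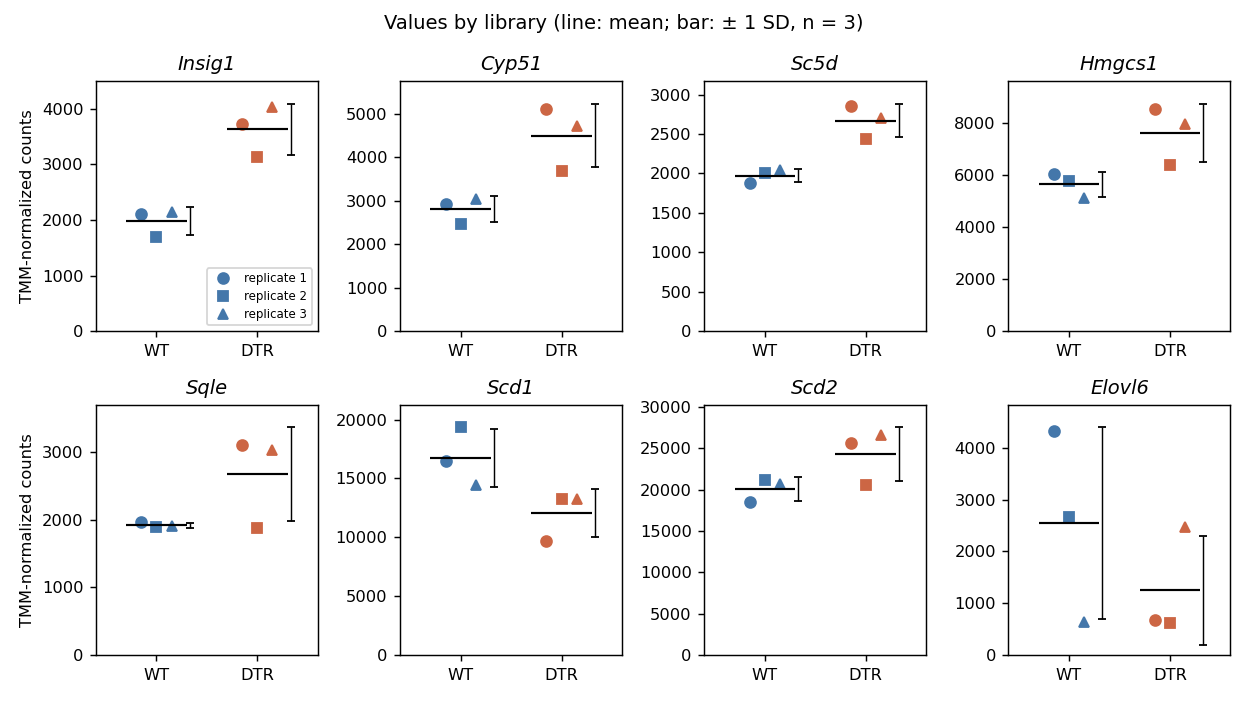
TMM-normalized counts (y axis, from 0) of 8 genes in each library, with WT in blue, DTR in orange, the replicate number as the marker, a line at the mean and a bar of 1 SD (n = 3). Insig1, Cyp51, Sc5d and Hmgcs1 separate the groups upward and Scd1 downward, while DTR replicate 2 lies at the WT level for Sqle and Scd2.

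In the fatty acid branch the desaturases took most of the counts. *Scd1*, a stearoyl-CoA desaturase that is abundant in adipocytes and sebocytes, stood at 16453, 19327 and 14426 TMM-normalized counts in WT and at 9662, 13231 and 13257 in DTR. Its means were 16735 ± 2463 and 12050 ± 2068 (SD, n = 3), a log2 fold change of -0.47 ± 0.16, and it was the one gene of the 33 with all DTR libraries below all WT libraries. *Scd2*, its paralog, stood at 18465, 21113 and 20667 in WT and at 25685, 20535 and 26576 in DTR (0.27 ± 0.13), with replicate 2 of DTR inside the WT range. Per kb of exon, the ratio of *Scd1* to *Scd2* was 0.995, 1.02 and 0.780 in WT and 0.420, 0.720 and 0.557 in DTR, so it was lower in all 3 DTR libraries. These paralogs are similar in sequence, and reads could have been split between them.

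The enzymes that build the chain differed less between groups. *Fasn*, fatty acid synthase, stood at 4469, 4637 and 4199 in WT and at 5564, 3887 and 5152 in DTR (log2 fold change 0.13 ± 0.14), and 1 DTR library was below every WT library. *Acly*, ATP citrate lyase, stood between 4409 and 4880 in WT and between 4861 and 5940 in DTR (0.18 ± 0.10). *Acaca*, the cytosolic acetyl-CoA carboxylase, stood between 1340 and 1493 in WT and between 1380 and 1755 in DTR (0.15 ± 0.11). For all 3 genes the groups overlapped.

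*Fads1* and *Fads2*, the delta-5 and delta-6 desaturases of polyunsaturated fatty acids, were fitted higher by 0.21 ± 0.14 and 0.32 ± 0.13 on the log2 scale. *Fads2* stood at 2684, 2654 and 3408 in WT and at 4120, 3349 and 3461 in DTR, where 1 DTR library lay under the highest WT library. *Elovl6*, the elongase that takes palmitate to stearate, had the widest spread of the set, at 4331, 2660 and 638 in WT and at 666, 623 and 2465 in DTR. The order of its libraries crossed the genotypes, with WT replicates 1 and 2 and DTR replicate 3 high and the other 3 libraries low. Its log2 fold change was -1.02 ± 0.95.

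The 3 libraries high in *Elovl6* were also those high in keratinocyte transcripts. *Krt14*, a keratin of basal epidermis, stood at 9933, 4573 and 0 in WT and at 1.03, 0 and 2139 in DTR, and *Krt5*, its partner, at 9336, 4392 and 4.16 in WT and at 0, 0 and 2100 in DTR. *Krt1*, a keratin of differentiated epidermis, was at 0 in DTR replicates 1 and 2. The other 3 libraries were not free of such transcripts, since *Krt10* stood there at 174 in WT replicate 3 and at 179 and 218 in DTR replicates 1 and 2, against 65177, 47500 and 3470 in the high libraries. All 10 of 10 keratinocyte markers were fitted lower in DTR, and together they held between 0.00287 and 0.326% of the counts in WT and between 0.00146 and 0.0309% in DTR. *Elovl4*, an elongase of very long chains used in the skin barrier, stood at 5744, 2408 and 108 in WT and at 130, 61.2 and 1206 in DTR. It was high in the same 3 libraries. Without those libraries, the log2 fold change of *Elovl6* was 0.01 and that of *Hsd17b7* was 0.66, the regulators' median was 0.20, the sterol median was 0.33 and the fatty acid median was 0.10. That comparison rests on 1 WT library.

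**Figure D3:**
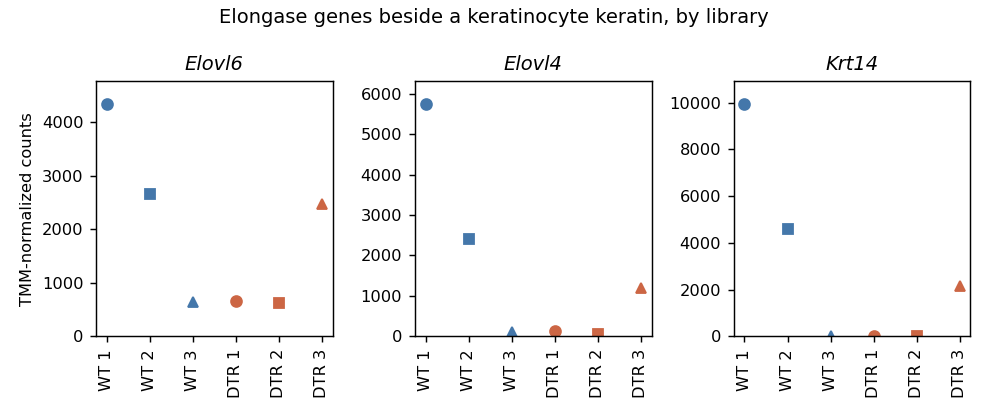
TMM-normalized counts (y axes, from 0) of Elovl6, Elovl4 and the keratinocyte keratin Krt14 in each of the 6 libraries, with WT in blue and DTR in orange. WT replicates 1 and 2 and DTR replicate 3 are the 3 highest libraries in all 3 genes.

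The 3 DTR libraries did not stand alike. Expressed as the median log2 difference from the WT mean, the sterol branch was at 0.10, -0.02 and -0.07 in WT and at 0.42, 0.01 and 0.41 in DTR. Replicate 2 was thus at the WT level, and replicates 1 and 3 were above it. On the same scale the fatty acid branch was at -0.05, 0.06 and -0.02 in WT and at 0.33, -0.05 and 0.22 in DTR. DTR replicate 2 was the lowest DTR library for 18 of 20 sterol genes and 7 of 8 fatty acid genes, against 36.3% of all tested genes. Of the 20 sterol genes, 14 in DTR replicate 1, 5 in replicate 2 and 15 in replicate 3 were above every WT library, and of the 8 fatty acid genes 6, 0 and 6 were. Over all tested genes, 32.7% in DTR replicate 1, 28.3% in replicate 2 and 28.4% in replicate 3 were above every WT library, so the 5 of 20 in replicate 2 was near the background. These genes of replicate 2 were *Hmgcs1*, *Idi1*, *Cyp51*, *Sc5d* and *Mvd* in the sterol branch and *Insig1* and *Insig2* among the regulators. Set alone against WT, replicate 2 had log2 fold changes of 0.66 for *Insig1*, 0.39 for *Cyp51*, 0.30 for *Sc5d* and -0.04 for *Sqle*, and its sterol median was 0.0052.

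Muscle and proliferation marker lists also set DTR replicate 2 apart from the other DTR libraries. Skeletal muscle markers were fitted lower in 12 of 12 and held between 1.47 and 2.07% of the counts in WT, and 0.243, 1.78 and 0.463% in DTR, so that DTR replicate 2 held as much as WT. *Ckm*, the muscle creatine kinase, stood at 66836, 46313 and 38297 in WT and at 6032, 47422 and 9956 in DTR, and none of the 12 markers was at 0 in any library. Proliferation markers were fitted higher in 10 of 10 and had medians of 0.42, -0.12 and -0.29 in WT and of 1.04, 0.05 and 1.00 in DTR, on the scale used for the sterol branch. *Mki67*, which marks cycling cells, stood at 3666, 2397 and 2013 in WT and at 4975, 2581 and 4993 in DTR. Together the 10 proliferation markers held between 0.0125 and 0.0209% of the counts in WT and between 0.0159 and 0.0315% in DTR. The part of these lists in the values of the synthesis genes was not tested. With DTR replicate 2 left out, the sterol median was 0.44 and the fatty acid median was 0.26, and with DTR replicate 1 left out they were 0.21 and 0.077.

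**Figure D4:**
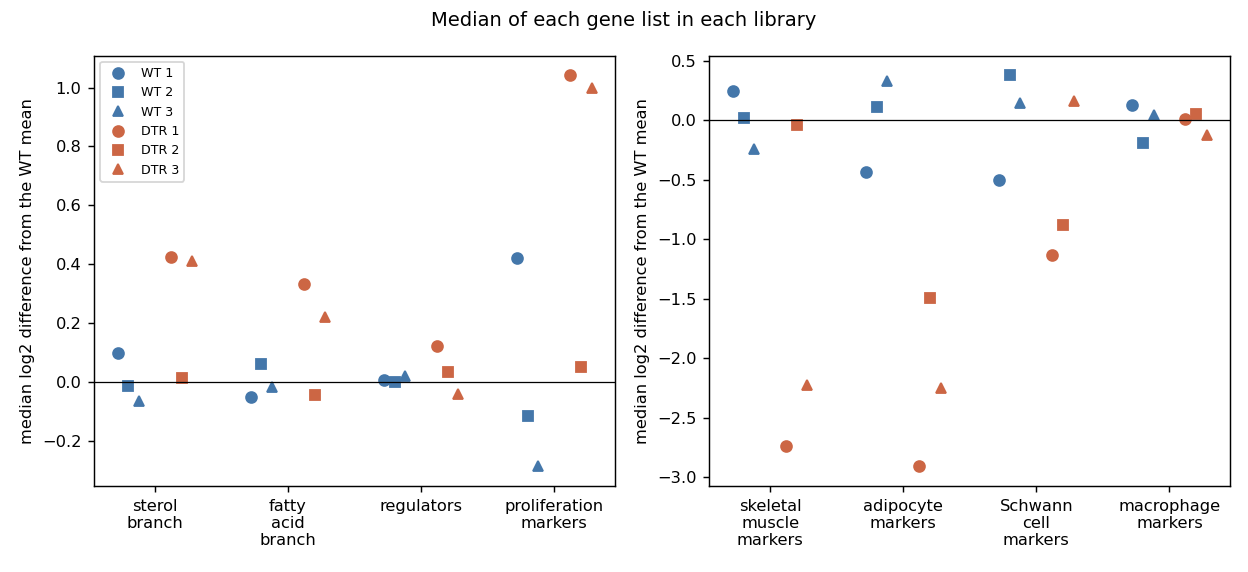
Median log2 difference from the WT mean (y axes, which differ between the panels) of each gene list in each library, with WT in blue, DTR in orange and the replicate number as the marker. DTR replicates 1 and 3 lie together for the sterol branch (0.42 and 0.41), proliferation (1.04 and 1.00) and muscle (-2.74 and -2.23), with DTR replicate 2 near the WT libraries.

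Adipocyte markers stood lower in DTR, as *Scd1* did. All 14 of 14 were fitted lower in DTR, 9 without overlap, against 7.85% of tested genes. DESeq2 called 6 of them lower, against 1.53% of its tested genes. Their medians, on the scale used for the sterol branch, were -0.43, 0.11 and 0.33 in WT and -2.91, -1.50 and -2.25 in DTR. The markers held between 0.118 and 0.212% of the counts in WT. In DTR they held 0.0337, 0.145 and 0.0493%, where replicate 2 lay inside the WT range. Most of this share was *Car3*, carbonic anhydrase 3, which skeletal muscle also expresses, at 68078, 79844 and 38598 in WT and at 7559, 54058 and 9998 in DTR. Without *Car3* the list held between 0.0284 and 0.0342% in WT and 0.0181, 0.0292 and 0.0266% in DTR. The next most abundant markers overlapped between groups, with log2 fold changes of -0.27 for *Fabp4*, a fatty acid binding protein, and -0.0044 for *Lpl*, lipoprotein lipase. *Adipoq*, the adipokine adiponectin, stood at 96.4, 187 and 273 in WT and at 17.5, 62.2 and 26.7 in DTR. *Plin1*, which coats the lipid droplet, stood at 68.0, 119 and 117 in WT and at 5.15, 32.5 and 25.7 in DTR, and *Lep*, leptin, was at 0 in DTR replicates 1 and 3. The 7 sebaceous gland markers were all fitted lower, 0 of them without overlap, with *Awat2* at 0 in DTR replicate 1. They held between 0.00155 and 0.0155% of the counts in WT and between 0.000934 and 0.00549% in DTR. Their medians were 1.40, 0.33 and -1.57 in WT and -4.12, -1.38 and -0.44 in DTR, so WT replicate 3 lay below DTR replicates 2 and 3. Schwann cell markers, from cells that make much cholesterol for myelin, were fitted lower in 10 of 11 (median -0.38), with *Mbp*, myelin basic protein, at 4672, 8749 and 6984 in WT and at 2481, 3728 and 4697 in DTR. They held between 0.0628 and 0.116% in WT and between 0.0453 and 0.0803% in DTR. Macrophage markers, by contrast, had a median of -0.01 (4 of 10 fitted higher), and tendon cell markers had one of 0.31 (6 of 8 fitted higher). The part of these cell types in the difference of *Scd1* or of any other gene of the set was not tested.

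Levels between genes were compared per kb of exon. In WT, *Scd2* (3675 ± 260 TMM-normalized counts per kb) and *Scd1* (3421 ± 503) were the highest of the 33 and differed by less than their SDs. *Hmgcs1* (1229 ± 105), *Fads1* (1167 ± 125) and *Ebp* (1046 ± 179) came next, and their ranges of mean ± SD overlapped. At the lower end, *Tm7sf2* (55.1 ± 5.31), *Idi1* (44.7 ± 1.08) and *Fdps* (41.8 ± 4.99) had the lowest levels per kb. Of the regulators, *Insig2* stood highest in WT, at 833 ± 3.16, above *Insig1* at 640 ± 80.4. In DTR this order turned, with *Insig1* at 1173 ± 149 and *Insig2* at 825 ± 23.3. Likewise *Srebf1* (530 ± 8.34) and *Srebf2* (509 ± 23.7) were close to each other in WT, and in DTR they were at 489 ± 39.9 and 634 ± 136, the latter with the wider spread.

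**Figure D5:**
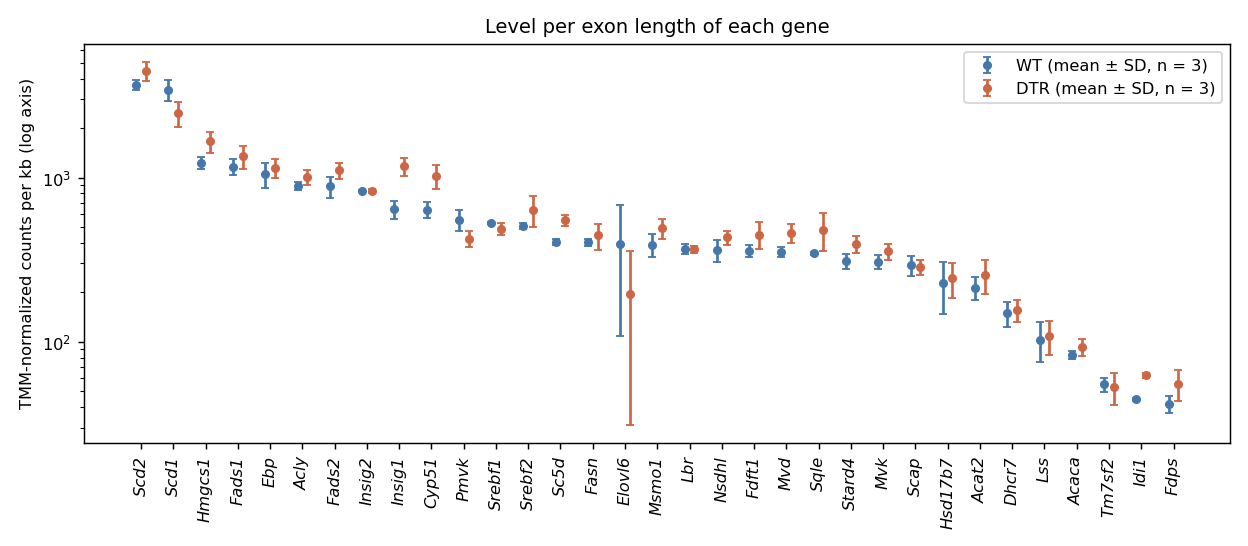
TMM-normalized counts per kb of exon (y axis, log scale) of each of the 33 genes, ordered by the WT mean, as mean and SD of 3 WT (blue) and 3 DTR (orange) libraries. The levels run from 3675 for Scd2 to 41.8 for Fdps in WT, and the bars of Elovl6 are the longest on both sides.

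The rest of the pathway was described from 6 lists of other genes, in which edgeR called 0 genes, as over all genes. Of all tested genes, 51.5% were fitted higher, and 8.96% were higher and 7.85% lower without overlap. DESeq2 called 1.12% of its tested genes higher and 1.53% lower. Among genes of sterol uptake, trafficking and storage, 11 of 18 were fitted higher (median log2 fold change 0.06), and DESeq2 called 1 higher and 0 lower. All 3 DTR libraries were above all 3 WT libraries for *Tmem97*, a sterol-binding protein of the endoplasmic reticulum (0.42 ± 0.13), and for *Lipa*, the lysosomal lipase that frees cholesterol from its esters (0.24 ± 0.10). *Vldlr*, the VLDL receptor, which is high in muscle and fat, stood on the other side, at 7586, 6515 and 4016 in WT and at 1205, 3651 and 1038 in DTR (-1.62 ± 0.61), with replicate 2 of DTR nearest to WT.

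Of the other sterol synthesis genes, 3 of 4 tested were fitted higher (median 0.25) and DESeq2 called none of them. *Erg28*, a scaffold of the C4 demethylation complex, stood at 918, 970 and 1101 in WT and at 1418, 1109 and 1452 in DTR (0.41 ± 0.13), without overlap. Genes of SREBP processing and INSIG turnover were fitted higher in 14 of 19 (median 0.07), and DESeq2 called none of them. Within that list, 4 genes had all DTR libraries above all WT libraries, against 8.96% of tested genes, each by a small amount. Among them were *Mbtps1*, the site-1 protease that cuts SREBP (0.13 ± 0.09), and the COPII coat genes *Sec23a* (0.26 ± 0.12) and *Sec24a* (0.26 ± 0.11).

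Genes of the liver X receptors, cholesterol efflux and oxysterols leaned the other way, with 10 of 12 fitted lower (median -0.11). DESeq2 called 1 of them lower and 0 higher. That gene was *Cyp27a1*, the sterol 27-hydroxylase, at 1627, 1489 and 1450 in WT and at 681, 1235 and 851 in DTR (-0.72 ± 0.21). *Nr1h2*, liver X receptor beta, was lower without overlap by a smaller amount (-0.19 ± 0.08), and *Cyp7b1*, the oxysterol 7-alpha hydroxylase, was higher without overlap (0.39 ± 0.17). The efflux transporter gene *Abca1*, a standard LXR target, overlapped between groups, with a log2 fold change of -0.12.

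Other genes of fatty acid synthesis and elongation were fitted higher in 11 of 25 and lower in 14 (median -0.01), and DESeq2 called 1 in each direction. *Idh1*, a cytosolic source of NADPH, stood at 5825, 6285 and 7079 in WT and at 8297, 8866 and 8069 in DTR (0.39 ± 0.10). In *Idh1*, replicate 2 was the highest DTR library, unlike in most genes of the set. *Acacb*, the mitochondrial acetyl-CoA carboxylase, which restrains fatty acid oxidation in muscle, stood at 1868, 1936 and 1280 in WT and at 408, 944 and 545 in DTR (-1.42 ± 0.35). *Tecr*, the last enzyme of the elongation cycle (-0.28 ± 0.08), and *Mid1ip1*, an activator of acetyl-CoA carboxylase (-0.13 ± 0.08), were also lower without overlap.

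Genes of fatty acid activation and triglyceride synthesis were fitted lower in 6 of 10 (median -0.21), and DESeq2 called 2 lower and 0 higher. These were *Dgat2*, which makes triglyceride, at 1213, 851 and 439 in WT and at 210, 384 and 258 in DTR (-1.55 ± 0.42), and *Lpin1*, a phosphatidate phosphatase, at 2684, 2613 and 1744 in WT and at 1178, 1673 and 1137 in DTR (-0.82 ± 0.22). For both, replicate 2 was the highest DTR library, as it was in the medians of the muscle and adipocyte markers. *Acsl3*, an acyl-CoA synthetase of lipid droplets, stood at 1246, 1301 and 1621 in WT and at 2059, 1975 and 1626 in DTR (0.44 ± 0.14). Its lowest DTR library lay just above its highest WT library.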

How the data were processed

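Bulk RNA-seq was performed on FDL tendons of 3 DTR and 3 WT mice. Per the labels and methods, the authors trimmed the demultiplexed reads with FastP and assigned them to genes with featureCounts. They deposited whole-number counts per gene, not normalized, and a signal table of normalized counts, made by DESeq2 (version 1.22.1), in which each column equals the counts divided by 1 constant. The aligner, genome build, annotation and strand setting are not given in the sources used here, which leaves genes that overlap or lie antisense uncertain. The labels name both a TruSeq Stranded mRNA kit and a SMARTER kit. Library totals ran from 42744138 to 48854310 counts, so counting error was small for genes with high counts, though not for those with few. For all genes n = 3 limits the precision. Replicate libraries differed by 36.6 to 190 chi-square per degree of freedom, and none was a duplicate.

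Differences were fitted to the counts by edgeR 4.0.16 under R 4.3.3 (filterByExpr, TMM factors, robust quasi-likelihood fit with genotype as the single term) over 17496 genes. The Benjamini-Hochberg adjusted p had to be under 0.05 for a call. TMM-normalized counts are counts divided by the effective library size and multiplied by the mean library size. The standard error of a log2 fold change is its size over the root of the quasi-likelihood F. Lengths per kb came from GENCODE vM21 (GRCm38) exon unions, which may differ from the authors' annotation. The 33 genes and all other lists were chosen with earlier results of these data known. Of the other lists, genes without overlap whose mean reached 50 normalized counts were named, at most 4 per list by size of change, beside the defining markers and markers at 0. *Elovl4* and *Abca1* were named for their role, after their values were seen. Some genes that the rule or the lists take in are not reported here by name. Alternatives were DESeq2 1.42.0, limma-voom (limma 3.58.1), other scaling factors, other filters, the deposited normalized values on a log2(value + 1) scale, a replicate block and leaving out each library. The replicate numbers did not pair the samples (correlations of same-numbered deviations -0.188, -0.149 and -0.684).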

Additional observations from a re-analysis of the deposited data

How the results depend on the processing

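Of 528 values of the 33 genes under alternatives, 497 kept the sign of the reported value, and 19 of the genes kept it under all of them. edgeR called 0 genes in either direction; DESeq2 called 197 higher and 269 lower, and edgeR without a filter on low counts called 45 and 38. Leaving out 1 library gave 0 to 103 higher and 0 to 441 lower, the highest counts being without DTR replicate 2. With the replicate block, 0 genes were called higher and 1 lower, and 0 of the 33 genes were called, as in the main fit. The replicate numbers share no design. Of the 33, 3 were called higher by DESeq2, 2 without the filter (*Insig1*, *Cyp51*), and 0 to 5 with 1 library left out. Of the other pathway genes, DESeq2 called 6, and 0 to 4 were called with 1 library left out. The regulators' median was -0.0178 to 0.0559 with 1 library left out and 0.2045 without the 3 libraries high in keratinocyte transcripts. For DTR replicate 2 alone, an alternative chosen after seeing the data, as was the former, the sterol median was 0.0052 and the fatty acid median -0.053. With 1 library left out, these medians ran from 0.2127 to 0.4362 and from 0.0769 to 0.2602. The median WT level per kb was 389.6 by exon union and 475.2 by the longest transcript. The looser element TCACNCNAC was found in 2 genes (*Hmgcs1* and *Nsdhl*), against 3.15% of all genes with a window. The cause of these differences was not tested. Among the DTR tendons, replicate 2 stood apart in muscle and proliferation transcripts, and replicate 3 in keratinocyte transcripts and the Schwann cell median. With 3 tendons per group, the design gives little precision for differences of this size.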
